A study of Arabidopsis thaliana with 24 samples.

Results

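UDP-glycosyltransferases (UGTs) are enzymes of the cytosol that move a sugar, most often glucose, from an activated UDP-sugar to a small molecule. In plants their acceptors include hormones, flavonoids, lignin precursors, sterols and foreign compounds, and the sugar usually makes the acceptor more soluble and less active and prepares it for storage in the vacuole. Several UGTs of *Arabidopsis* act on salicylic acid, abscisic acid and other signals of defense. The members described here are the probe sets of the ATH1 array with 1 annotated gene whose symbol or synonym begins with UGT, 2 digits and a letter. Of 50 such probe sets, 40 were among the 16530 of highest mean signal and were tested. A further 1 with a UGT name was left out by the rule and is not reported here. The tested members stand for 40 genes in 11 numbered families, with 1 probe set each, among 22746 probe sets that are not controls.

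The samples were whole seedlings of *Arabidopsis thaliana*, cultured for 14 days in liquid medium under constant light and then given crab-shell chitin, hydrolysed with acid, at 100 mg/L, or water (mock treatment), for 30 min. Chitin is a polymer of fungal cell walls that plants perceive as a sign of attack. The lines were wild-type Col-0, *atl9* (named *rre1-1* in the labels, T-DNA line SALK_066755) and *rre2* (*rre2-1*, SALK_133789, an insertion in *ATL2*). Both disrupted genes encode RING proteins of the kind found in E3 ubiquitin ligases, and each line is a single insertion allele. Each of the 6 groups had 4 biological replicates on 1 array each, 24 arrays in all. No probe set of *ATL9* or *ATL2* was analysed here, so that the insertions were not checked on the arrays.

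Signals are given relative to the array median, that is, as the signal of the probe set divided by the median of all probe sets that are not controls on the same array. Groups were compared with limma on log2 of this ratio, and a gene is said to have risen or fallen, or to be higher or lower, at a Benjamini-Hochberg adjusted p under 0.05 over all 16530 probe sets. The medians themselves were lower after chitin, from 138.7 to 162.6 in Col-0 against 170.1 to 181.9 in mock. Without division by the median, the median over all probe sets of the log2 change after chitin shifted to -0.16 in Col-0, -0.16 in *atl9* and -0.17 in *rre2*, and the counts of members that fell depend on this step. Each group had 2 arrays on scan day 4, and the earlier scan days were not balanced between the lines. Mock arrays were washed on other fluidics modules than chitin arrays, and the module cannot be told apart from the treatment. The seedlings were measured whole, and fewer cells of a type cannot be told apart from less RNA per cell.

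In Col-0, 4 members rose and 8 fell after chitin, beside 11.4% and 5.57% of all probe sets. In *atl9*, 5 rose and 4 fell, beside 7.57% and 2.99%. In *rre2*, 5 rose and 6 fell, beside 8.29% and 3.82%. As shares of the 40 members, 10.0% rose and 20.0% fell in Col-0, 12.5% and 10.0% in *atl9*, and 12.5% and 15% in *rre2*. The median log2 change of the members was -0.10 in Col-0, -0.06 in *atl9* and -0.18 in *rre2*, against 0.05, 0.01 and 0.00 over all probe sets. The median size of the change, whatever its sign, was 0.39, 0.41 and 0.37 for the members, against 0.25, 0.19 and 0.21 over all probe sets. On the values as deposited, 3 members rose and 12 fell in Col-0, 5 and 11 in *atl9*, and 5 and 12 in *rre2*. Of all 16530 probe sets, 1162 rose and 2536 fell in Col-0 on these values, 1005 and 1671 in *atl9*, and 1114 and 2105 in *rre2*. After division by the median, 921, 494 and 631 of all probe sets had fallen. With quantile normalization the counts of members were 3 and 9, 5 and 9, and 5 and 9. Those of all probe sets were then 1378 and 1565, 1132 and 1130, and 1248 and 1301. The 8 members that fell in Col-0 became 4 without replicate 2 or 3 of the Col-0 mock group or Col-0 chitin replicate 2, and 5 without Col-0 chitin replicate 3 or 4. The 4 that fell in *atl9* became 2 without *atl9* mock replicate 2, and the 6 that fell in *rre2* became 3 without *rre2* mock replicate 2. The counts over all probe sets in these smaller fits are not given here, and a general loss of calls cannot be told apart from one of the members.

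*UGT71B6*, *UGT73B5*, *UGT73D1* and *UGT76D1* rose in all 3 lines, and *UGT76E11* and *UGT84A3* fell in all 3. Altogether 19 members passed the test in at least 1 of 9 comparisons (the chitin response of each line, each mutant against Col-0 in mock and after chitin, and the interaction of each mutant with chitin), and 21 passed in none. The share of all probe sets that passed in at least 1 of the 9 was not counted, and the 19 cannot be set against it.

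**Figure D1:**
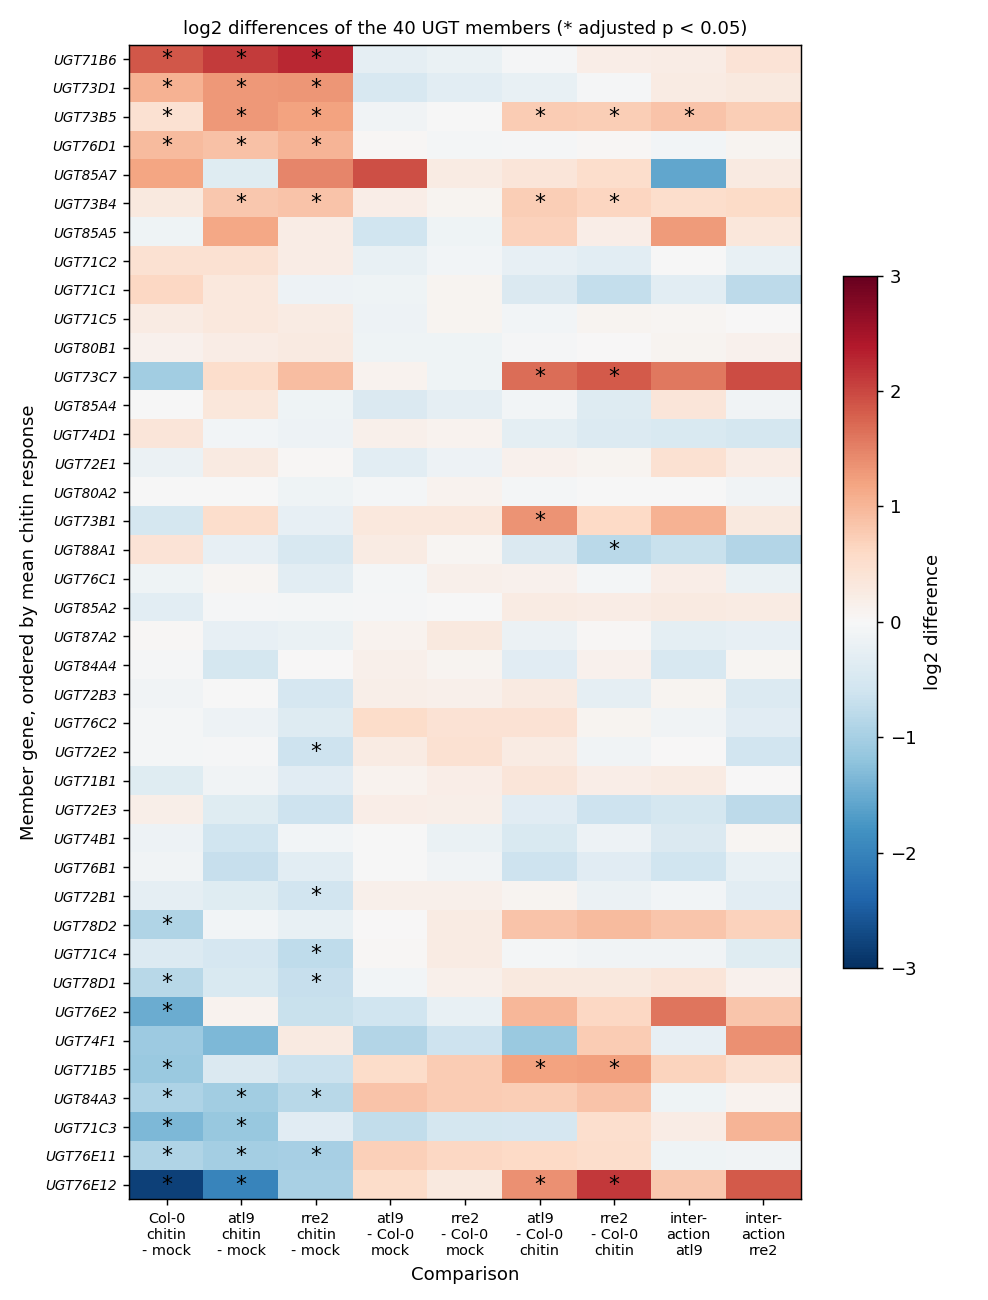
Color gives the log2 difference of each of the 40 members (rows, ordered by their mean chitin response) in 9 comparisons (columns), red for higher and blue for lower, and a star marks a limma adjusted p under 0.05. *UGT71B6* stands at the top with changes of 1.87, 2.101 and 2.27, *UGT76E12* at the bottom with -2.80, -1.98 and -0.96, and the mock columns hold no star.

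Among the enzymes that act on hormones and their relatives, *UGT71B6* (AT3G21780), which attaches glucose to abscisic acid, showed the strongest rise of any member in all 3 lines. Its relative signal in Col-0 was 0.926, 1.25, 1.29 and 1.53 in the mock replicates and 4.78, 4.65, 4.51 and 4.12 in the chitin replicates. In *atl9* it was 1.21, 1.13, 0.795 and 0.995 in mock and 4.15, 5.03, 4.01 and 4.37 after chitin. In *rre2* it was 0.951, 1.07, 1.26 and 1.04 in mock and 4.88, 5.28, 6.02 and 4.66 after chitin. Every chitin array lay above every mock array, in each line and across lines. The log2 changes were 1.87 in Col-0, 2.101 in *atl9* and 2.27 in *rre2*, or 3.66-fold, 4.29-fold and 4.83-fold, with limma standard errors of 0.16, 0.16 and 0.15 and adjusted p of 4.80e-07, 9.39e-08 and 2.41e-08 (n = 4 arrays per group). The response of *atl9* exceeded that of Col-0 by 0.23 (95% interval -0.25 to 0.70) and that of *rre2* by 0.40 (-0.04 to 0.84), and neither interaction passed the test. *UGT71C5*, a tested member also known to conjugate abscisic acid, had changes of 0.24, 0.31 and 0.25, none of which passed.

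*UGT76D1* (AT2G26480), whose product conjugates dihydroxybenzoic acids derived from salicylic acid, rose by 0.95 in Col-0, 0.88 in *atl9* and 1.02 in *rre2* on the log2 scale (limma standard errors 0.21, 0.21 and 0.20, adjusted p = 0.00609, 0.0130 and 0.00199). Its relative signal ranged from 1.13 to 1.62 in mock and from 2.01 to 3.20 after chitin in Col-0, from 1.13 to 1.65 and from 1.80 to 3.48 in *atl9*, and from 0.988 to 1.80 and from 2.04 to 3.40 in *rre2*. The groups did not overlap within any line.

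*UGT71C3* (AT1G07260), which conjugates methyl salicylate, moved the other way. In Col-0 its relative signal was 6.41, 9.89, 5.71 and 5.28 in mock and 4.13, 2.17, 2.18 and 2.27 after chitin. In *atl9* it was 3.90, 5.98, 3.50 and 3.09 in mock and 1.26, 2.88, 1.61 and 1.85 after chitin. In these lines the chitin arrays all lay below the mock arrays. In *rre2*, with 2.54, 7.15, 5.81 and 4.31 in mock and 2.62, 2.90, 3.73 and 6.33 after chitin, the groups overlapped. The log2 changes were -1.36 in Col-0 (limma standard error 0.29, adjusted p = 0.00400) and -1.13 in *atl9* (0.29, adjusted p = 0.0170), and -0.34 in *rre2* (95% interval -1.06 to 0.39, adjusted p = 0.639). The interaction for *rre2* was 1.02 (adjusted p = 0.383 by limma), so that a difference between the responses of *rre2* and Col-0 was not shown. The fall in *atl9* did not pass without *atl9* mock replicate 2 or *atl9* chitin replicate 1 or 3 (adjusted p up to 0.0623).

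*UGT74F1*, one of the enzymes that attach glucose to salicylic acid, had log2 changes of -1.10 in Col-0, -1.34 in *atl9* and 0.27 in *rre2*, with adjusted p of 0.127, 0.0923 and 0.691 by limma. It fell in Col-0 and *atl9* on the values as deposited, and in *atl9* with all 24 arrays in the fit. *UGT76B1*, which conjugates isoleucic acid, salicylic acid and N-hydroxypipecolic acid, was among the members of highest signal, with changes of -0.10, -0.70 and -0.32 that did not pass. In *atl9* it fell on the values as deposited and with quantile normalization. It also fell there with an offset of 32 and with the 11000 probe sets of highest mean. Its relative signal in *atl9* was 13.6, 11.9, 10.6 and 10.5 in mock and 5.19, 7.92, 10.5 and 5.97 after chitin. *UGT74D1*, which conjugates auxin, had a change of 0.37 in Col-0 that missed the threshold (adjusted p = 0.0524 by limma), and -0.08 and -0.16 in the mutants. Its rise in Col-0 passed with the 11000 probe sets of highest mean, without moderation and with the scan day as a block. The cytokinin N-glucosyltransferases *UGT76C1* and *UGT76C2* had changes between -0.39 and 0.07, and neither passed in any comparison of the main fit. On the values as deposited *UGT76C2* fell in *rre2*.

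Of the 5 tested members of family 73, which includes enzymes linked to pathogen and stress responses and to the detoxification of foreign compounds, 2 rose in Col-0 and 3 rose in each mutant, and none fell in any line. Of all probe sets, 11.4% rose in Col-0, 7.57% in *atl9* and 8.29% in *rre2*, and 5.57%, 2.99% and 3.82% fell. *UGT73D1* (AT3G53150) was one of the members that rose. Its relative signal in Col-0 was 4.41, 2.96, 4.19 and 2.60 in mock and 7.26, 7.82, 5.94 and 7.48 after chitin. In *atl9* it was 2.16, 3.33, 2.57 and 2.08 in mock and 7.08, 5.17, 6.26 and 6.03 after chitin, and in *rre2* 2.51, 3.91, 2.37 and 2.52 and then 6.76, 7.16, 7.70 and 6.24. The chitin arrays lay above the mock arrays in every line. The log2 changes were 1.04, 1.29 and 1.33 in Col-0, *atl9* and *rre2* (limma standard error 0.19 in each, adjusted p = 0.00115, 1.43e-04 and 9.85e-05), and the interactions of 0.26 and 0.29 did not pass.

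*UGT73B5* (AT2G15480), known for a role in redox balance during the response to bacterial infection, is the only member whose chitin response differed between lines by the test of the difference. In Col-0 its relative signal was 2.74, 3.26, 3.28 and 3.10 in mock and 4.21, 4.73, 4.35 and 3.68 after chitin. In *atl9* it was 2.73, 3.42, 2.85 and 2.59 in mock and 7.42, 7.55, 6.83 and 6.77 after chitin. In *rre2* it was 2.98, 2.98, 3.34 and 2.93 in mock and 6.45, 6.23, 9.56 and 6.37 after chitin. The mock arrays of the 3 lines lay in 1 band, and after chitin every mutant array lay above every Col-0 array. The log2 rises were 0.45 in Col-0 (limma standard error 0.11, adjusted p = 0.0125), 1.31 in *atl9* (0.11, adjusted p = 5.27e-07) and 1.20 in *rre2* (0.14, adjusted p = 1.12e-05). The response of *atl9* exceeded that of Col-0 by 0.86 (standard error 0.16, 95% interval 0.51 to 1.20, adjusted p = 0.0382 by limma). Among all probe sets 0.169% passed this test in the same direction. For *rre2* the excess was 0.75 (0.33 to 1.17, adjusted p = 0.124), and no member passed this interaction with limma, beside 0.0302% of all probe sets higher and 0.121% lower. At an unadjusted p under 0.05 it gave 11 members, or 27.5%, beside 13.1% of all probe sets. The Col-0 rise did not pass on the values as deposited (0.25, adjusted p = 0.163) or with quantile normalization (0.33, adjusted p = 0.0687). The interaction for *atl9* did not pass without any 1 of 11 of the 16 arrays (*atl9* mock replicate 1, 3 or 4, *atl9* chitin replicate 1, 3 or 4, Col-0 mock replicate 2, 3 or 4, replicate 3 or 4 of Col-0 after chitin, adjusted p up to 0.106), nor with the scan day (0.82, adjusted p = 0.0643) or the replicate number (adjusted p = 0.0514) as a block.

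*UGT73B4* (AT2G15490), an enzyme that conjugates nitroaromatic pollutants such as TNT, lies next to *UGT73B5* on chromosome 2. It rose by 0.80 in *atl9* (limma standard error 0.15, adjusted p = 0.00169) and 0.85 in *rre2* (0.17, adjusted p = 0.00271). In Col-0 its relative signal ranged from 0.998 to 1.30 in mock and from 1.37 to 1.46 after chitin, a change of 0.28 (95% interval -0.04 to 0.60) that did not pass. After chitin it ranged from 1.96 to 3.15 in *atl9* and from 1.55 to 2.79 in *rre2*, above all Col-0 arrays. In *rre2* the lowest chitin array lay just below the highest mock array, at 1.59. The interactions of 0.52 and 0.57 (adjusted p = 0.280 and 0.334 by limma) did not pass, so that no line difference in the response was shown for this gene. *UGT73C7* and *UGT73B1*, the remaining members of the family, had no chitin response that passed in any line and are described with the comparisons between lines.

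**Figure D2:**
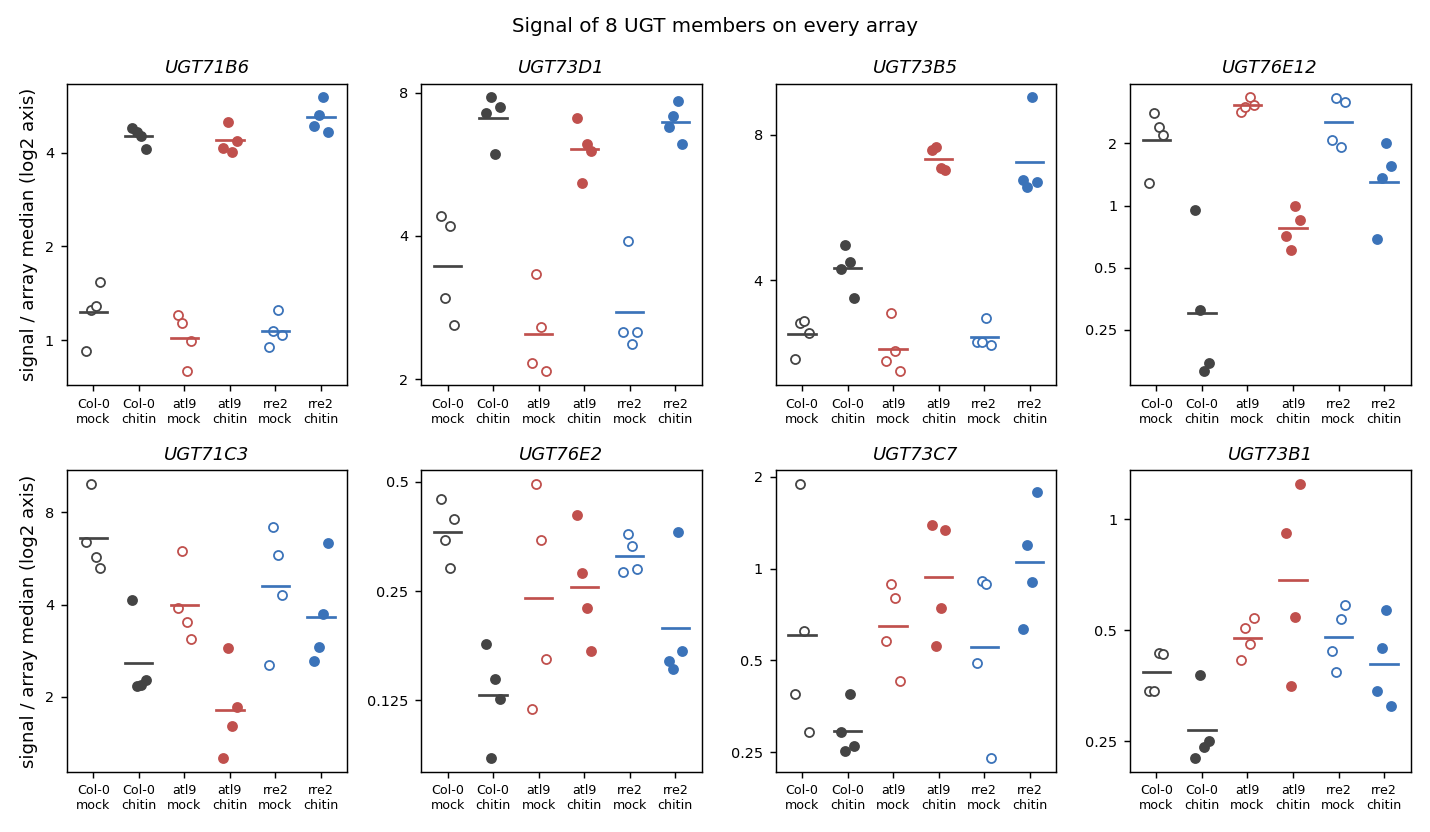
Each point is 1 array, its signal divided by the array median on a log2 axis, for 8 members in 6 groups of 4 arrays (open: mock, filled: chitin), and each bar is the mean of the log2 values. In *UGT71B6* the chitin arrays, from 4.01 to 6.02, stand clear of the mock arrays, from 0.795 to 1.53, while in *UGT73B1* the chitin arrays of *atl9* spread from 0.353 to 1.24.

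Several members work on phenylpropanoids or flavonoids. *UGT84A3* (AT4G15490), which makes glucose esters of hydroxycinnamic acids, the precursors of lignin and sinapate, fell in all 3 lines by -0.93, -1.05 and -0.83 on the log2 scale (limma standard errors 0.27, 0.27 and 0.26, adjusted p = 0.0262, 0.0171 and 0.0486). Its relative signal in Col-0 was 1.11, 2.21, 1.78 and 2.15 in mock and 1.46, 0.737, 0.702 and 0.960 after chitin, with an overlap made by replicate 1 of both groups. In *atl9* it ranged from 2.39 to 4.37 in mock and from 1.17 to 1.71 after chitin, and in *rre2* from 2.78 to 3.41 and from 1.18 to 2.14, without overlap. The falls lay close to the threshold. The call was lost without any 1 of 6 arrays in Col-0 (mock or chitin replicate 2, 3 or 4), 3 in *atl9* (mock replicate 1 or 4, chitin replicate 2) and 10 in *rre2* (Col-0 mock replicate 3 or 4, replicate 2 or 4 of Col-0 after chitin, any *rre2* mock replicate, *rre2* chitin replicate 1 or 4), with adjusted p up to 0.0836, 0.0645 and 0.150. That in *rre2* was also lost with the scan day (0.0639) or the replicate number (0.0834) as a block. *UGT84A4*, of the same activity and next to *UGT84A3* on chromosome 4, had changes of -0.04, -0.52 and 0.00 that did not pass. On the values as deposited it fell in *atl9*.

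*UGT76E11* (AT3G46670), reported to act on flavonols, fell by -0.91, -1.03 and -1.01 in Col-0, *atl9* and *rre2* (limma standard errors 0.26, 0.26 and 0.20, adjusted p = 0.0221, 0.0140 and 0.00227). Its relative signal ranged from 0.433 to 0.680 in mock and from 0.209 to 0.374 after chitin in Col-0, from 0.693 to 1.16 and from 0.312 to 0.622 in *atl9*, and from 0.798 to 0.894 and from 0.313 to 0.562 in *rre2*. The groups did not overlap in any line. These signals are low, and with an offset of 32 added to the deposited values the falls were -0.58, -0.76 and -0.74, all of which passed. The call in Col-0 was lost without replicate 2 of either Col-0 group or replicate 3 of Col-0 mock, and that in *atl9* without *atl9* mock replicate 2 or *atl9* chitin replicate 3 (adjusted p up to 0.0665).

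*UGT78D1* (AT1G30530), a flavonol 3-O-rhamnosyltransferase, fell by -0.82 in Col-0 (limma standard error 0.27, adjusted p = 0.0495) and by -0.69 in *rre2* (0.20, adjusted p = 0.0307), and its change in *atl9* was -0.45 (adjusted p = 0.404). *UGT78D2* (AT5G17050), a flavonoid 3-O-glucosyltransferase, fell by -0.91 in Col-0 (0.29, adjusted p = 0.0387), from 3.56, 9.40, 8.11 and 4.69 in mock to 5.09, 2.81, 2.73 and 2.58 after chitin. In the mutants its changes were -0.08 and -0.22, and the interactions of 0.83 and 0.70 did not pass (adjusted p = 0.367 and 0.519 by limma). Both calls in Col-0 were fragile. That of *UGT78D1* was lost without any 1 of 10 arrays (each Col-0 mock replicate, Col-0 chitin replicate 2, 3 or 4, *atl9* mock replicate 2, *atl9* chitin replicate 3 or 4), that of *UGT78D2* without any 1 of 5 (Col-0 mock replicate 2 or 3, replicate 2, 3 or 4 of Col-0 after chitin), and both with the replicate number as a block (adjusted p = 0.0589 and 0.0511) and with the scan day as a block (0.0583 and 0.0598). When the Col-0 response was taken from the fit with *rre2*, *UGT78D2* did not pass either (adjusted p = 0.0525). In *rre2* the call of *UGT78D1* was lost without *rre2* mock replicate 2 or 3 or *rre2* chitin replicate 1 or 2 (adjusted p up to 0.102).

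Family 72 holds enzymes of lignin precursors, and 2 of its 5 members fell in *rre2*, beside 3.82% of all probe sets. *UGT72E2* (AT5G66690), which glucosylates monolignols, had 15.3, 15.7, 18.6 and 13.1 times the array median in mock and 7.78, 9.72, 12.4 and 10.9 times after chitin in *rre2*, a log2 change of -0.63 (limma standard error 0.16, adjusted p = 0.0137). *UGT72B1* (AT4G01070), which acts on monolignols and on chlorinated pollutants, ranged from 18.4 to 21.1 in mock and from 10.2 to 16.6 after chitin in this line, a change of -0.57 (0.15, adjusted p = 0.0166). In Col-0 and *atl9* the changes were -0.05 and -0.04 for *UGT72E2* and -0.26 and -0.35 for *UGT72B1*, none of which passed, and the interactions of *rre2* with chitin, -0.58 and -0.31, did not pass either. On the values as deposited and with quantile normalization, *UGT72B1* fell in Col-0 and *atl9* too. *UGT72E1*, an enzyme of the aldehyde precursors of lignin, had the highest mean signal of the members that passed in no comparison. Its changes were -0.19, 0.27 and 0.03. The fall of *UGT72E2* was lost without *rre2* chitin replicate 1, and that of *UGT72B1* without *rre2* mock replicate 2 or *rre2* chitin replicate 2 (adjusted p up to 0.0642).

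The members that follow are described without a role. *UGT76E12* (AT3G46660) showed the strongest fall of any member in Col-0 and *atl9*. In Col-0 its relative signal was 1.29, 2.80, 2.39 and 2.20 in mock and 0.947, 0.313, 0.157 and 0.174 after chitin. In *atl9* it was 2.83, 3.01, 3.35 and 3.08 in mock and 0.714, 0.606, 0.991 and 0.847 after chitin. In *rre2* it was 2.07, 3.31, 1.93 and 3.18 in mock and 0.691, 1.36, 2.00 and 1.55 after chitin. The groups were apart in Col-0 and *atl9*, and in *rre2* the highest chitin array lay just above the lowest mock array. The log2 changes were -2.80 in Col-0 (limma standard error 0.42, adjusted p = 2.24e-04), -1.98 in *atl9* (0.42, adjusted p = 0.00464) and -0.96 in *rre2* (95% interval -1.97 to 0.05, adjusted p = 0.245). The interaction for *rre2*, 1.84 (0.41 to 3.27, adjusted p = 0.255), did not pass.

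*UGT76E2* (AT5G59590) fell in Col-0, from 0.448, 0.345, 0.289 and 0.396 in mock to 0.179, 0.0867, 0.143 and 0.126 after chitin, without overlap. The log2 change was -1.50 (limma standard error 0.39, adjusted p = 0.0139), or -0.72 with an offset of 32, since the signal lies near the bottom of the tested range. In *atl9*, with 0.119, 0.493, 0.346 and 0.162 in mock and 0.406, 0.281, 0.225 and 0.171 after chitin, the groups overlapped widely and the change was 0.10. In *rre2* it had 0.282, 0.359, 0.332 and 0.287 in mock and 0.161, 0.152, 0.364 and 0.171 after chitin, and its change of -0.66 did not pass (adjusted p = 0.131 by limma). It passed without *rre2* chitin replicate 3 (adjusted p = 0.00627), on the values as deposited and with quantile normalization. *UGT71B5* (AT4G15280) fell by -1.11 in Col-0 (0.20, adjusted p = 0.00124), and its changes of -0.44 and -0.65 in the mutants did not pass. *UGT71C4* (AT1G07250) fell by -0.76 in *rre2* (0.15, adjusted p = 0.00219), beside -0.40 in Col-0 and -0.50 in *atl9* that did not pass. It fell in Col-0 and *atl9* too on the values as deposited, and in *atl9* with quantile normalization. The interactions of these 3 genes did not pass.

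**Figure D3:**
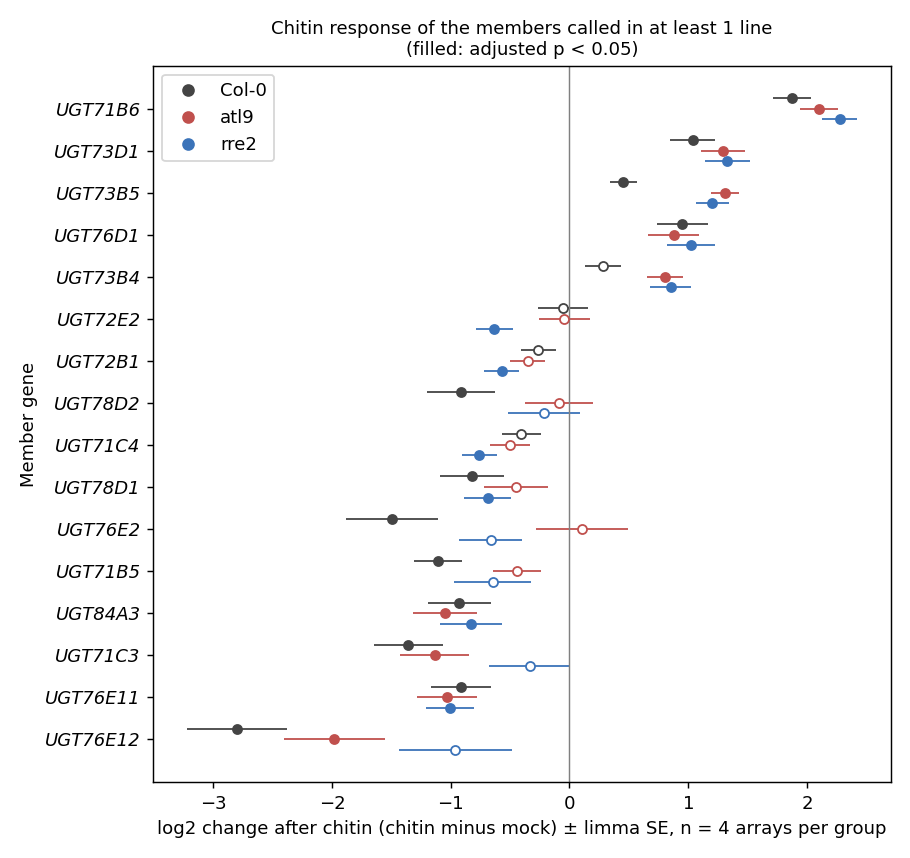
Points are log2 changes after chitin with limma's standard error in Col-0 (grey), *atl9* (red) and *rre2* (blue) for the 16 members that passed in at least 1 line, and filled points have an adjusted p under 0.05. The rises of *UGT71B6* lie from 1.87 to 2.27, and the points of *UGT76E12* spread from -2.80 in Col-0 to -0.96 in *rre2*.

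In mock, no member passed the test between *atl9* and Col-0 or between *rre2* and Col-0 with limma, beside 0.00605% and 0.0% of all probe sets in either direction. At an unadjusted p under 0.05 the 40 members gave 8 and 5, or 20.0% and 12.5%, beside 6.82% and 5.78% of all probe sets, and the linear model without moderation also called 0. All comparisons of a mutant with Col-0 use the same Col-0 arrays for both mutants, and values that stand side by side below are not independent of each other. *UGT84A3* and *UGT76E11*, which fell with chitin in every line, had mock differences of 0.86 and 0.71 in *atl9* and 0.77 and 0.61 in *rre2* that did not pass. Their mock arrays in both mutants still all lay above those of Col-0. Of the 40 members, 4 lay above Col-0 without overlap in *atl9* mock and 1 below, beside 2.0% and 2.71% of all probe sets. In *rre2* mock 5 lay above and 0 below, beside 1.83% and 1.34%.

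After chitin, *atl9* had 6 members higher than Col-0 and none lower, beside 5.15% and 7.05% of all probe sets. In *rre2*, 5 were higher and 1 was lower, beside 2.84% and 4.49%. The count for *rre2* changed when 1 array was left out. It was 1 without Col-0 chitin replicate 3 or 4 or *rre2* chitin replicate 3, 2 without *rre2* chitin replicate 4 and 3 without *rre2* chitin replicate 2. In *atl9*, 2 members were lower without *atl9* chitin replicate 2, and 1 was lower without *atl9* chitin replicate 3 or 4 or Col-0 chitin replicate 2. In *rre2*, 2 were lower without *rre2* chitin replicate 1. Counts over all probe sets without an array are not given here. A general loss or gain of calls cannot be told apart from one of these members. With the scan day as a block 4 members were higher in each mutant, beside 619 probe sets in *atl9* and 439 in *rre2*. Scan day 4 alone, with 2 arrays per group, gave no member. Of all 16530 probe sets it gave 0 in *atl9* and 1 in *rre2*, so that this setting says nothing about the members in particular.

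*UGT73B5* was higher than in Col-0 by 0.75 in *atl9* and 0.73 in *rre2* on the log2 scale (limma standard errors 0.11 and 0.14, adjusted p = 0.00125 and 0.00702), and *UGT73B4* by 0.73 and 0.65 (0.15 and 0.17, adjusted p = 0.00754 and 0.0320). In mock the differences of *UGT73B5* were -0.10 and -0.02. The call of *UGT73B4* in *rre2* was lost without any 1 of 7 arrays, namely each Col-0 chitin replicate and *rre2* chitin replicate 2, 3 or 4 (adjusted p up to 0.108).

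*UGT73C7* (AT3G53160), an enzyme of p-coumaric and ferulic acid with a part in immunity, had low signals. After chitin it was 0.291, 0.252, 0.388 and 0.262 in Col-0, 1.39, 0.555, 0.744 and 1.34 in *atl9*, and 0.634, 1.20, 0.903 and 1.79 in *rre2*. In mock it was 0.388, 1.89, 0.624 and 0.291 in Col-0, 0.577, 0.891, 0.801 and 0.426 in *atl9*, and 0.489, 0.910, 0.889 and 0.239 in *rre2*. The lines overlapped in mock, and after chitin both mutants lay above Col-0. The differences after chitin were 1.67 in *atl9* (limma standard error 0.47, adjusted p = 0.0300) and 1.84 in *rre2* (0.52, adjusted p = 0.0441), or 1.20 and 1.33 with an offset of 32. Its chitin response was -1.04 in Col-0, 0.53 in *atl9* and 0.92 in *rre2*, none of which passed, and the interactions of 1.57 and 1.96 had adjusted p of 0.290 and 0.269. The difference after chitin was lost without any 1 of 5 arrays for *atl9* (*atl9* chitin replicate 1 or 4, Col-0 chitin replicate 1, 2 or 4) and 9 for *rre2* (Col-0 mock replicate 3, each Col-0 chitin replicate, *rre2* mock replicate 1, *rre2* chitin replicate 2, 3 or 4), and with the scan day as a block (adjusted p = 0.0745 and 0.0558). For *atl9* it was also lost with the replicate number as a block (adjusted p = 0.0504).

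*UGT71B5* after chitin was 0.526, 0.558, 0.519 and 0.361 in Col-0, 1.42, 0.974, 0.812 and 1.42 in *atl9*, and 0.620, 0.899, 1.93 and 1.53 in *rre2*. Every mutant array lay above every Col-0 array. The difference was 1.22 in both mutants (limma standard errors 0.20 and 0.32, adjusted p = 0.00214 and 0.0320), beside mock differences of 0.55 and 0.76 that did not pass. For *UGT76E12* the difference was 1.37 in *atl9* (0.42, adjusted p = 0.0462) and 2.12 in *rre2* (0.48, adjusted p = 0.0148), with Col-0 chitin replicate 1, at 0.947, inside the range of the mutants. Without any 1 of 12 of the 16 arrays the call of *UGT76E12* in *atl9* was lost (every *atl9* mock replicate, *atl9* chitin replicate 1, 3 or 4, Col-0 mock replicate 3 or 4, replicate 2, 3 or 4 of Col-0 after chitin, adjusted p up to 0.142), as it was with the scan day (0.105) or the replicate number (0.0820) as a block, with quantile normalization (0.0525) and with an offset of 32 (0.0506). In *rre2* the calls were lost without Col-0 chitin replicate 3 or 4 or *rre2* chitin replicate 3 for both genes, and without *rre2* chitin replicate 4 for *UGT71B5* (adjusted p up to 0.110).

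*UGT73B1* (AT4G34138) was higher in *atl9*, with 0.918, 0.353, 0.543 and 1.24 after chitin against 0.225, 0.379, 0.240 and 0.250 in Col-0. The groups overlapped in 1 array on either side. The log2 difference was 1.36 (limma standard error 0.30, adjusted p = 0.00987), or 0.92 with an offset of 32. In *rre2*, with 0.342, 0.447, 0.566 and 0.311, the difference was 0.60 (0.21, adjusted p = 0.0944), and it passed without Col-0 chitin replicate 2. In mock the gene had 0.342, 0.343, 0.434 and 0.431 in Col-0, 0.415, 0.508, 0.457 and 0.538 in *atl9* and 0.439, 0.384, 0.537 and 0.584 in *rre2*. *UGT88A1* (AT3G16520) was the member that was lower, by -0.81 in *rre2* (0.16, adjusted p = 0.00786). Its relative signal after chitin was 7.59, 5.62, 7.22 and 8.70 in Col-0 and 5.02, 3.43, 4.44 and 3.67 in *rre2*, without overlap, and its difference in *atl9* was -0.43 (adjusted p = 0.106). Its chitin responses were 0.41 in Col-0, -0.26 in *atl9* and -0.47 in *rre2*. None of these passed, and neither interaction passed. The fall in *rre2* passed on the values as deposited, with quantile normalization, with an offset of 32 and with 11000 probe sets.

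**Figure D4:**
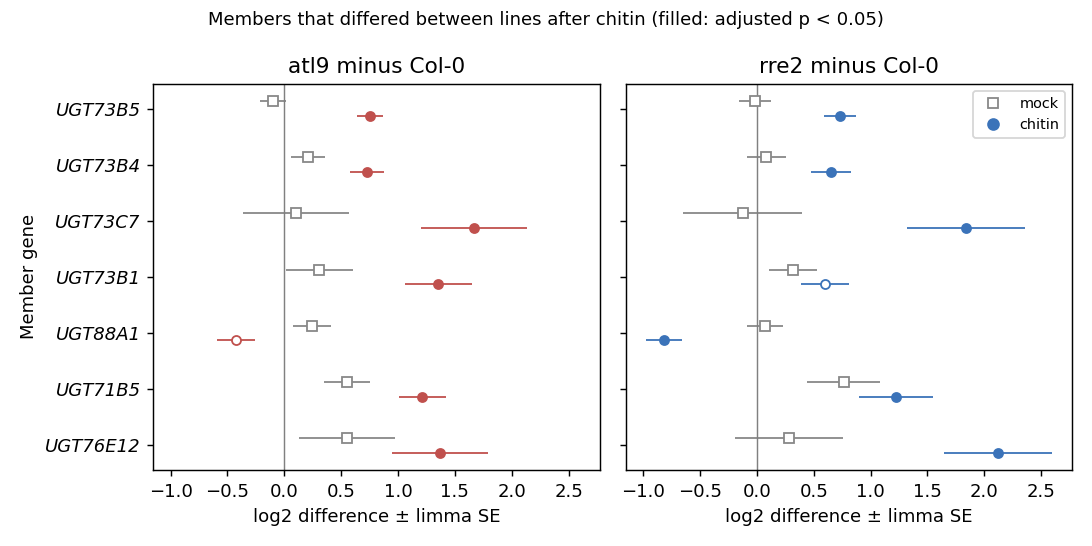
Log2 differences from Col-0 with limma's standard error are shown for the 7 members that passed after chitin in at least 1 mutant, in mock (squares) and after chitin (circles), with *atl9* on the left and *rre2* on the right, and filled symbols have an adjusted p under 0.05. *UGT73B5* sits at -0.10 and -0.02 in mock and at 0.75 and 0.73 after chitin, and *UGT88A1* is the member below 0 after chitin.

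Many members have another member as neighbour on the chromosome, with no other protein-coding gene between them in 9 of the 11 pairs found among those tested. Neighbours did not always respond alike. *UGT73D1*, which rose in Col-0 by 1.04, lies next to *UGT73C7*, with a change of -1.04 that did not pass, and in the mutants the pair had 1.29 and 0.53, and 1.33 and 0.92. *UGT71B6* is separated by 2 genes from *UGT71B1*, which had changes of -0.36, -0.10 and -0.35. In the pair of *UGT76E12* and *UGT76E11*, separated by 1 gene, both fell in Col-0 and *atl9*, and in the pair of *UGT73B5* and *UGT73B4* both rose in the mutants. *UGT71C5*, *UGT71C4* and *UGT71C3*, which follow each other, had changes of 0.24, -0.40 and -1.36 in Col-0 in this order, of which the last passed.

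The 21 members that passed in no comparison of the main fit include some of the most highly expressed. *UGT87A2*, an enzyme with a role in flowering time, ranged from 11.6 to 19.5 times the array median over all groups, with changes of 0.04, -0.24 and -0.20. In both mutants it fell on the values as deposited and with quantile normalization. *UGT74B1*, which acts in glucosinolate synthesis, ranged from 6.77 to 19.7, with changes of -0.15, -0.59 and -0.09. It fell in *atl9* under the same 2 settings. The sterol glucosyltransferases *UGT80A2* and *UGT80B1* had changes between -0.12 and 0.27. The largest difference among the 21 was 1.93 for *UGT85A7* between *atl9* and Col-0 in mock (adjusted p = 0.563 by limma), with 0.194, 0.631, 0.490 and 0.534 in *atl9* and 0.230, 0.212, 0.0632 and 0.0487 in Col-0, signals near the bottom of the tested range.

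The limit on the mean signal left out 10 members (*UGT71B8*, *UGT73C1*, *UGT73C2*, *UGT76E1*, *UGT78D3*, *UGT79B6*, *UGT84A1*, *UGT84B1*, *UGT84B2* and *UGT85A3*). Just inside the limit were *UGT85A5*, *UGT85A7* and *UGT76E2*, with mean relative signals of 0.249, 0.239 and 0.238, and the nearest outside were *UGT85A3* and *UGT71B8*, with 0.129 and 0.123. None of the 10 passed limma in any comparison when all probe sets were tested (smallest adjusted p = 0.0942). The probe sets with UGT names that stand for several genes (3) were not members, and probe sets that the annotation does not list, 7183 of those tested, could hold other UGTs that were not analysed here.

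Genes of related pathways were represented by few named probe sets. Of 41 glutathione transferases, which share the detoxification of foreign compounds with UGTs, 11 were tested. *GSTU20* rose in Col-0 by 0.93 (adjusted p = 0.0324 by limma) and was lower in *atl9* than in Col-0 after chitin by -1.42 (adjusted p = 0.00583), none of the others rose or fell with chitin in any line, and *GSTU22* was lower in *rre2* than in Col-0 after chitin by -0.85 (adjusted p = 0.0391). Of 30 genes that supply flavonols and phenylpropanoids, of 33 that supply UDP-sugars and of 20 of salicylic acid metabolism, 1 each was tested. *HCT*, of monolignol synthesis, and *USP*, a UDP-sugar pyrophosphorylase, did not pass in any chitin response or between either mutant and Col-0. Interactions are not reported for the genes of these lists. *BSMT1*, which makes methyl salicylate, was higher in *rre2* than in Col-0 after chitin by 3.19 (standard error 0.81, adjusted p = 0.0269 by limma). Its signal was low, with mean relative signals after chitin of 1.14 in *rre2* and 0.275 in Col-0, a smaller difference than the log2 value gives. The chitin responses of *BSMT1*, -1.75, 0.35 and 1.03, did not pass. Of 8 shoot markers, 4 (*RCA*, *PSAN*, *LHCB4.1* and *LHCB4.2*) were tested. All 4 rose with chitin in Col-0, by 0.67 to 0.97, none rose or fell in either mutant, and *RCA*, *LHCB4.1* and *LHCB4.2* were lower in *rre2* than in Col-0 after chitin. Their summed relative signal ranged from 82.8 to 115.9 in mock and from 158.6 to 197.1 after chitin in Col-0, from 109.3 to 124.5 and from 92.0 to 174.9 in *atl9*, and from 79.6 to 139.4 and from 73.9 to 111.1 in *rre2*. None of the tested markers was at 0. The part of these shoot genes in the differences of UGT members between Col-0 and the mutants was not tested. Of 11 root markers, 2 (*EXPA7* and *EXPA18*) were tested and did not pass, with summed signals from 8.50 to 17.9 over all groups, and none of 6 pollen markers had a tested probe set.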

How the data were processed

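Biotinylated cRNA (15 µg) of each sample was hybridized to 1 ATH1 array, and the authors extracted signals with GCOS 1.1 at a target intensity of 500, per the labels. The deposited table holds the authors' linear intensities. The later division by the array median in GeneSpring 7.0, per the labels, is not contained in them and was done here. Instrument text files gave scan day and fluidics module. Detection calls were not used here.

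Log2 of each intensity over the median of its array was taken without an offset, the 16530 probe sets of highest mean were kept, and limma 3.58.1 (lmFit and eBayes, R 4.3.3) was fitted to the 16 arrays of Col-0 and 1 mutant as 4 group means. The Col-0 response comes from the fit with *atl9*. P-values were adjusted by Benjamini-Hochberg over all probe sets tested. The script was checked on simulated data. The number of arrays limits the precision.

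Members and gene lists were chosen with earlier results of these data known. Named are all members that passed in any comparison. Values per array are given for the 8 with the largest difference and for others where groups overlap or stand apart. The 5 of highest mean among the rest, and up to 3 genes per list with the smallest adjusted p, are named too. *UGT75B1* was to be named and is not analysed here. Genes were named from TAIR10.1 through the array annotation, and sequences of members were not used here. One field of the labels calls the chitin-treated Col-0 samples untreated. They were taken as chitin-treated from titles and source names.

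The replicate numbers were not treated as pairs. After removal of the group means, arrays of different groups had a mean r of 0.008 with the same number and -0.002 with other numbers. In 16 of 60 same-number pairs r exceeded 0.1. By scan day the mean r was 0.087 for the same day and -0.042 for different days, and the main fit had no term for the scan day. Alternatives were an offset of 32, no filter, values as deposited, quantile normalization, the 11000 probe sets of highest mean, no moderation, all 24 arrays, replicate number or scan day as a block, scan day 4 alone and each array left out. The Col-0 response from the fit with *rre2* was added after seeing the data.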

Additional observations from a re-analysis of the deposited data

Results flagged for a closer look

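In a group of 4, an array stood apart when its gap to the nearest other array took a share of the range of the group above Dixon's 95% critical value. Of 114 groups checked (19 members in 6 groups), 10 met this, where chance alone flags about 1 in 20 groups. *UGT71B5* stood at 0.361 in Col-0 chitin replicate 4, below 0.519 to 0.558 in the others, and at 1.12 in *atl9* mock replicate 1, below 1.67 to 1.74. *UGT71C3* stood at 4.13 in Col-0 chitin replicate 1, above 2.17 to 2.27, and *UGT78D2* at 5.09 in the same array, above 2.58 to 2.81. *UGT72E2* stood at 8.59 in *atl9* chitin replicate 2, below 14.1 to 15.5, and *UGT84A3* at 1.17 in the same array, below 1.63 to 1.71. *UGT73B5* stood at 9.56 in *rre2* chitin replicate 3, above 6.23 to 6.45, and at 3.34 in *rre2* mock replicate 3, above 2.93 to 2.98. *UGT76E2* stood at 0.364 in *rre2* chitin replicate 3, above 0.152 to 0.171. *UGT73D1* stood at 3.91 in *rre2* mock replicate 2, above 2.37 to 2.52.

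The chitin response of *UGT73B5* differed between lines by the test of the difference in the main fit, 0.86 larger in *atl9* than in Col-0 on the log2 scale. The call was lost without any 1 of 11 of the 16 arrays (limma adjusted p up to 0.106). It was also lost without the filter, with the replicate number or the scan day as a block, and on scan day 4 alone.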

How the results depend on the processing

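None of the 45 calls of named members changed direction under any alternative. Differences that had not passed were not part of this count. Of 455 values of these calls under alternatives that left out no array, 388 stayed on their side of the threshold and 67 lost the call. With every array left out in turn, 27 of the 45 calls held. On the values as deposited and with quantile normalization, 11 and 9 members fell in *atl9*, beside 1671 and 1130 of all 16530 probe sets. On the values as deposited 12 fell in *rre2*, beside 2105 of all probe sets. Without the filter 5 members fell in Col-0, beside 702 of 22746 probe sets, where the main fit had 921 of 16530. Higher in *rre2* than in Col-0 after chitin were then 2 members, beside 288 probe sets, against 470 in the main fit. No member then passed the interaction with *atl9*. Of all probe sets 5 were higher and 6 lower in it, against 28 and 47 in the main fit. The Col-0 response from the fit with *rre2* lost the fall of *UGT78D2*, with counts of 4 and 8 as before. Without moderation 3 were higher in *rre2*, beside 375 of all 16530 probe sets. With 11000 probe sets 2 were lower, beside 839 of them, against 742 of 16530 in the main fit. With the replicate number as a block, or with the scan day as a block, 0 members passed the interaction of *atl9* and chitin. Of all probe sets, 10 were higher and 14 lower with the first block, and 11 and 26 with the second. Scan day 4 alone, with 2 arrays per group, gave 2 falls in Col-0, 2 in *atl9* and 1 in *rre2*, 3 rises in *rre2*, and 0 for members higher in *atl9*, higher in *rre2*, lower in *rre2* and in the interaction. Over all 16530 probe sets it gave 146, 114 and 155 falls and 781 rises in *rre2*. Between lines after chitin it gave 0 probe sets for *atl9* and 1 for *rre2*, and 0 in either interaction. With 1 array left out, the members that rose numbered 4 to 5 in Col-0, 5 to 7 in *atl9* and 5 in *rre2*, and those that fell 4 to 9, 2 to 5 and 3 to 8. Those higher after chitin numbered 4 to 8 in *atl9* and 1 to 7 in *rre2*, those lower 0 to 2 and 1 to 2, and those in the interaction of *atl9* 0 to 1. In mock no count changed from 0. These ranges have no count over all probe sets beside them. Calls were gained without an array for *UGT78D2* (*atl9* after chitin without Col-0 mock 1 or 2 or chitin 1, *rre2* without Col-0 mock 1 or chitin 1), *UGT84A3* (*atl9* without Col-0 chitin 1, *rre2* without Col-0 mock 1, Col-0 chitin 1 or *rre2* chitin 1) and *UGT88A1* (*atl9* after chitin without *atl9* chitin 4, Col-0 response without Col-0 chitin 2, *rre2* response without *rre2* chitin 1), and for the *atl9* responses of *UGT71C4* and *UGT73B1* without *atl9* mock 1 and *atl9* chitin 2. The precision is limited by 4 arrays per group, and the lowest signals may be background.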
